A study of Chlamydomonas reinhardtii with 9 samples.

Results

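Small heat shock proteins and chloroplast stress proteins were followed in the unicellular green alga Chlamydomonas reinhardtii as 8 loci out of 17737 gene identifiers in the count files. The loci were chosen by a list of locus numbers with names, and all 8 were present and had enough reads to be tested. They are HSP22A (Cre07.g318800), HSP22B (Cre07.g318850), HSP22E (Cre14.g617450), HSP22F (Cre14.g617400), CLPB3 (Cre02.g090850), VIPP1 (Cre13.g583550), VIPP2 (Cre11.g468050) and DEG1C (Cre12.g498500). The names come from that list. Neither the count files nor the RefSeq gene table of assembly v5.5, which matched all 8 loci, pairs the numbers with symbols, so the names could not be checked here. The cells were wild type, of strain CPCC11, and spent 2 h in artificial freshwater medium, as 3 control cultures without mercury, 3 cultures with 0.05 nM methylmercury (MeHg, labelled CH3Hg at this dose) and 3 with 0.5 nM MeHg. The labels of the 0.05 nM samples describe the source in other words and alone name a sequencer, so that dose and its separate description cannot be told apart.

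Small heat shock proteins are chaperones that bind unfolding proteins and keep them from aggregating until ATP-driven chaperones refold them. In Chlamydomonas, HSP22A and HSP22B are known as cytosolic and HSP22E and HSP22F as chloroplast members of this family. CLPB3 is the chloroplast disaggregase that pulls proteins out of aggregates, DEG1C is a serine protease of the chloroplast, and VIPP1 and VIPP2 are membrane-remodelling proteins of the thylakoid and inner envelope. Heat shock, oxidative stress and damage to chloroplast proteins are known to raise most of these transcripts, while VIPP1 is also abundant in unstressed cells. Methylmercury is an organic mercury compound that binds thiol groups, and the comparisons ask which of these loci moved at each dose.

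None of the 8 loci rose at 0.5 nM MeHg and 7 fell, to between 28.4% and 68.3% of the control level. At 0.05 nM, 5 fell, to between 50.8% and 75.7% of the control level, and none rose. Counts of risen loci were 0 at both doses in edgeR's and in DESeq2's test. Of all genes tested, edgeR called 27.2% higher at 0.05 nM and 31.6% at 0.5 nM at the adjusted threshold. At an unadjusted p under 0.05 in edgeR's test the counts of risen loci were 0 as well. Of the 14778 genes tested, 4510 were higher at 0.05 nM and 5015 at 0.5 nM at that unadjusted p. With the replicate number as a term of the fit, HSP22A and VIPP1 rose at 0.05 nM, where 33.2% of all genes were called higher in that fit. The chloroplast pair HSP22E and HSP22F, DEG1C, CLPB3 and VIPP2 were lower at both doses. The cytosolic pair HSP22A and HSP22B was lower at 0.5 nM and did not pass the test at 0.05 nM. VIPP1 did not pass the test at either dose. All 8 had negative log2 differences between 0.5 nM and 0.05 nM, of which 1 passed the test. With the replicate number as a term of the fit 6 passed, where 7.04% of all genes were called lower. The design text names no pairing, so the calls of that fit rest on a pairing inferred from the data. DESeq2's test, which used no pairing, called the same 6 loci lower between the doses, and 600 genes over all. These were HSP22A, HSP22B, HSP22E, HSP22F, CLPB3 and DEG1C. With library totals alone, edgeR called 0 of the 8 lower between the doses.

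These counts stand against a background in which many genes moved. The 8 loci were chosen with earlier results of these data known. The shares of all genes are therefore set beside the counts as description, and an excess over them was not tested. CPM below are read counts scaled to a common library size by TMM, which corrects library totals for composition, and a locus was called at an adjusted p under 0.05 over the 14778 genes tested in edgeR's quasi-likelihood test. At 0.5 nM against control, 28.7% of all genes tested were called lower and the median log2 change over all of them was 0.07, against 7 of 8 called lower and a median of -1.37 for the 8 loci. At 0.05 nM against control, 25% of all genes were called lower with a median of 0.05, against 5 of 8 and a median of -0.43 for the 8 loci. The 5 became 2 with library totals alone and without control replicate 2, and 3 without 0.05 nM replicate 1 or 3. At 0.5 nM against 0.05 nM, 0.819% were called lower with a median of 0.01, against 1 of 8 and a median of -0.74. That count was 0 to 6 over 14 alternative settings. The 3 treated libraries lay below all 3 controls for 7 of the 8 loci at 0.5 nM and for 4 at 0.05 nM, where the share over all genes was 29.7% and 28.3%. The 3 libraries at 0.5 nM lay below the 3 at 0.05 nM for 6 loci, where the share was 12.1%. Libraries held 15138888 to 20433375 reads assigned to genes. Reads that aligned at more than 1 place and were assigned to no gene came to 24.2% to 43.7% of the assigned reads in the controls, 19.0% to 21.7% at 0.05 nM and 20.8% to 23.0% at 0.5 nM, and their part in the results was not tested.

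**Figure D1:**
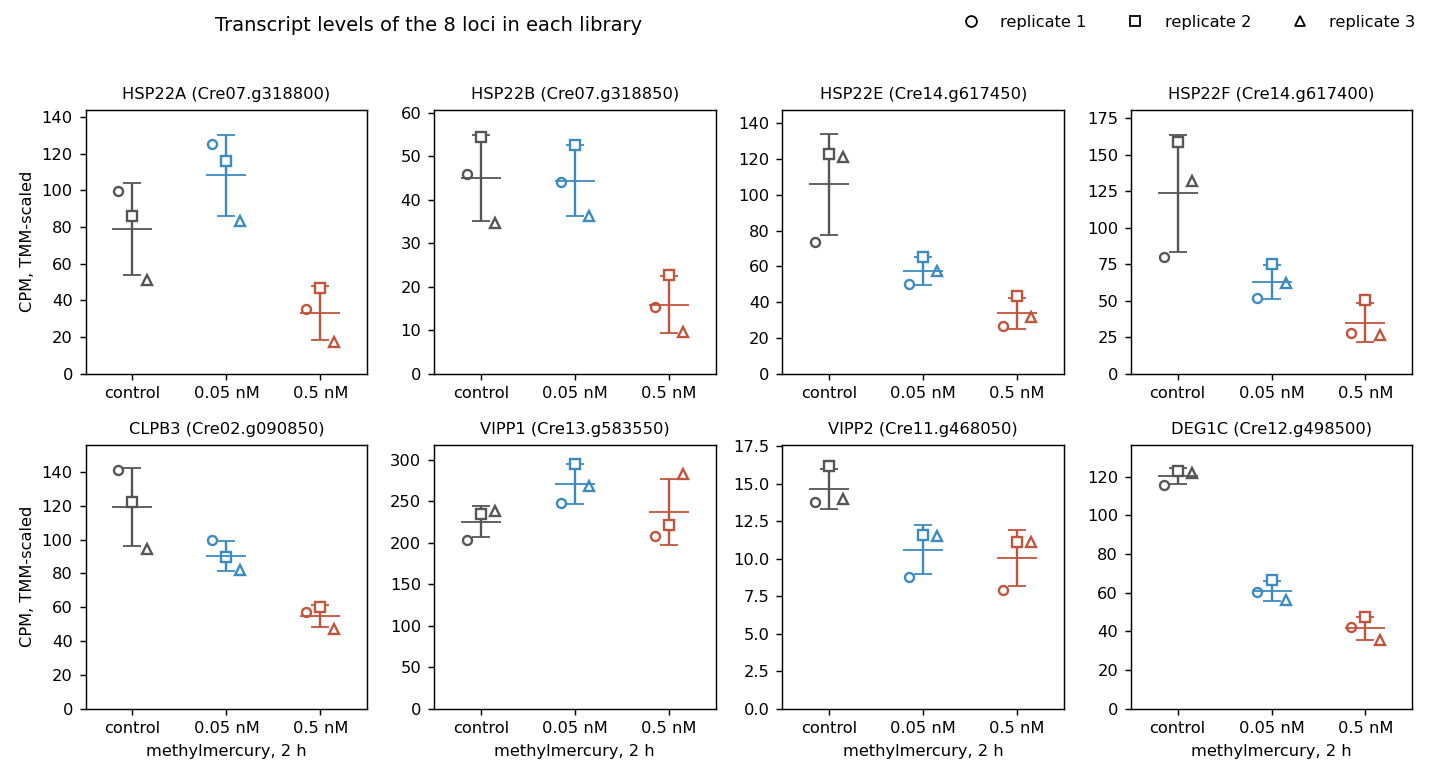
Transcript level of each locus in CPM (TMM-scaled, vertical axis from 0) in control, 0.05 nM and 0.5 nM MeHg cultures; symbols are single libraries by replicate number, horizontal lines the group means and error bars the SD (n = 3). At 0.5 nM the 3 libraries lie below the 3 controls for 7 loci, and VIPP1 is the exception.

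HSP22A had 99.6, 86.3 and 51.1 CPM in control replicates 1, 2 and 3, 125, 116 and 83.5 CPM at 0.05 nM, and 35.5, 46.7 and 17.2 CPM at 0.5 nM. The 0.5 nM libraries lay below all others, while the 0.05 nM and control libraries overlapped. HSP22A fell at 0.5 nM, with a log2 fold change of -1.25 ± 0.36 (SE; edgeR adjusted p = 0.015), to 33.2 ± 14.9 CPM against 79.0 ± 25.1 CPM in the controls (SD, n = 3 each). At 0.05 nM its log2 change was 0.45 ± 0.35, with a 95% interval of -0.35 to 1.25 (edgeR adjusted p = 0.31). Within each replicate number it was higher at 0.05 nM than in the control, by 0.33 to 0.71, and with the replicate number in the fit it rose by 0.49 ± 0.14 (edgeR adjusted p = 0.00774; all 14 alternatives gave 0.00774 to 0.628). HSP22A was thus the locus whose 2 doses lay on opposite sides of the control in every replicate number. The call at 0.5 nM was lost without control replicate 1 (edgeR adjusted p = 0.0664) and with library totals alone (edgeR adjusted p = 0.0867), the highest value over the alternatives, the lowest being 6.14e-06.

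HSP22B had 45.9, 54.5 and 34.6 CPM in the controls, 44.0, 52.6 and 36.3 CPM at 0.05 nM, and 15.4, 22.6 and 9.60 CPM at 0.5 nM. The control and 0.05 nM libraries covered the same range, and the 0.5 nM libraries lay below both. HSP22B fell at 0.5 nM against control, with a log2 fold change of -1.50 ± 0.28 (SE; edgeR adjusted p = 0.000902). At 0.05 nM the log2 change was -0.02 ± 0.26, with a 95% interval of -0.61 to 0.56 (edgeR adjusted p = 0.951), so the interval spans changes of over 0.5 either way. HSP22B was the member called between the doses, at -1.47 ± 0.27 (edgeR adjusted p = 0.0484). That call held in 3 of 14 alternatives, with adjusted p from 1.11e-06 with the replicate number in the fit to 0.245 without 0.05 nM replicate 2. HSP22A and HSP22B follow each other in the RefSeq gene order.

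HSP22E had 73.4, 123 and 121 CPM in the controls, 50.0, 65.5 and 57.4 CPM at 0.05 nM, and 26.5, 43.5 and 31.6 CPM at 0.5 nM. The 3 groups did not overlap, with the 0.5 nM libraries lowest and the controls highest. HSP22E fell at both doses, with log2 changes of -0.88 ± 0.21 at 0.05 nM (SE; edgeR adjusted p = 0.0054) and -1.64 ± 0.22 at 0.5 nM (edgeR adjusted p = 7.37e-05), calls that held in all 14 alternatives. Between the doses the log2 difference was -0.77 ± 0.22 (edgeR adjusted p = 0.122), and -0.78 ± 0.10 with the replicate number in the fit (edgeR adjusted p = 0.000131; alternatives 0.000131 to 0.445).

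HSP22F had 80.1, 159 and 132 CPM in the controls, 51.6, 75.0 and 62.2 CPM at 0.05 nM, and 28.2, 50.3 and 26.7 CPM at 0.5 nM. These groups did not overlap either. It had the lowest log2 change of the 8 loci at 0.5 nM against control, -1.81 ± 0.30 (SE; edgeR adjusted p = 0.000551), or 28.4% of the control level. Of all genes tested, 0.832% had a lower log2 change in that comparison. At 0.05 nM its log2 change was -0.97 ± 0.29 (edgeR adjusted p = 0.0189), a call lost in 5 of 14 alternatives, which were library totals alone and leaving out control replicate 2 or 3 or 0.05 nM replicate 1 or 3 (edgeR adjusted p = 0.0518 to 0.0704). Between the doses the log2 difference was -0.84 ± 0.30 (edgeR adjusted p = 0.232), and -0.87 ± 0.13 with the replicate number in the fit (edgeR adjusted p = 0.00082; alternatives 0.00082 to 0.624). HSP22E and HSP22F also follow each other in the RefSeq gene order.

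CLPB3, the disaggregase that works with small heat shock proteins, had 141, 122 and 94.7 CPM in the controls, 99.8, 89.5 and 81.9 CPM at 0.05 nM, and 57.3, 60.0 and 47.4 CPM at 0.5 nM. The 0.05 nM libraries overlapped the controls, and the 0.5 nM libraries lay below both. It fell at both doses, with log2 changes of -1.12 ± 0.15 at 0.5 nM (SE; edgeR adjusted p = 5.8e-05) and -0.40 ± 0.15 at 0.05 nM (edgeR adjusted p = 0.0373). The call at 0.05 nM was lost in 5 of 14 alternatives, with library totals alone and without control replicate 1 or 2 or 0.05 nM replicate 2 or 3 (edgeR adjusted p = 0.0866 to 0.497). Between the doses its log2 difference was -0.72 ± 0.15 (edgeR adjusted p = 0.0501), and -0.72 ± 0.08 with the replicate number in the fit (edgeR adjusted p = 6.19e-05; alternatives 6.19e-05 to 0.245).

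DEG1C, the protease, had 116, 123 and 122 CPM in the controls, 60.5, 66.5 and 56.2 CPM at 0.05 nM, and 42.0, 47.3 and 35.3 CPM at 0.5 nM. The groups did not overlap, and the control libraries varied less around their mean than those of any other member, with an SD of 3.38% of the mean. DEG1C fell at both doses, with log2 changes of -0.98 ± 0.11 at 0.05 nM (SE; edgeR adjusted p = 3.37e-05) and -1.53 ± 0.12 at 0.5 nM (edgeR adjusted p = 1.24e-06). Both calls held in all 14 alternatives. Between the doses the difference was -0.55 ± 0.11 (edgeR adjusted p = 0.0506), and -0.55 ± 0.08 with the replicate number in the fit (edgeR adjusted p = 0.000546; alternatives 0.000546 to 0.273).

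VIPP1 had 203, 234 and 238 CPM in the controls, 248, 295 and 268 CPM at 0.05 nM, and 208, 221 and 282 CPM at 0.5 nM. The 0.05 nM libraries lay above all controls, and the 0.5 nM libraries overlapped both groups. The log2 change was 0.26 ± 0.13 at 0.05 nM (SE; edgeR adjusted p = 0.111) and 0.07 ± 0.13 at 0.5 nM (edgeR adjusted p = 0.65), with 95% intervals of -0.02 to 0.55 and -0.21 to 0.36. With the replicate number in the fit it rose at 0.05 nM, by 0.27 ± 0.09 (edgeR adjusted p = 0.0173; alternatives 0.00119 to 0.307). With library totals alone it was called higher at both doses, by 0.53 ± 0.11 at 0.05 nM (edgeR adjusted p = 0.00119) and 0.36 ± 0.11 at 0.5 nM (edgeR adjusted p = 0.00999; alternatives 0.00999 to 0.993).

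VIPP2, the paralogue of VIPP1, had 13.8, 16.2 and 14.0 CPM in the controls, 8.76, 11.6 and 11.5 CPM at 0.05 nM, and 7.90, 11.1 and 11.1 CPM at 0.5 nM, from 167 to 266 reads per library. The libraries of both doses lay below the controls and overlapped each other. VIPP2 fell at both doses, with log2 changes of -0.47 ± 0.16 at 0.05 nM (SE; edgeR adjusted p = 0.0288) and -0.55 ± 0.16 at 0.5 nM (edgeR adjusted p = 0.011). The first call was lost without control replicate 2, without 0.05 nM replicate 1 and with library totals alone (edgeR adjusted p = 0.105, 0.112 and 0.301), and the second with library totals alone (edgeR adjusted p = 0.18). Between the doses its log2 difference was -0.09 ± 0.16, with a 95% interval of -0.44 to 0.27 (edgeR adjusted p = 0.899).

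**Figure D2:**
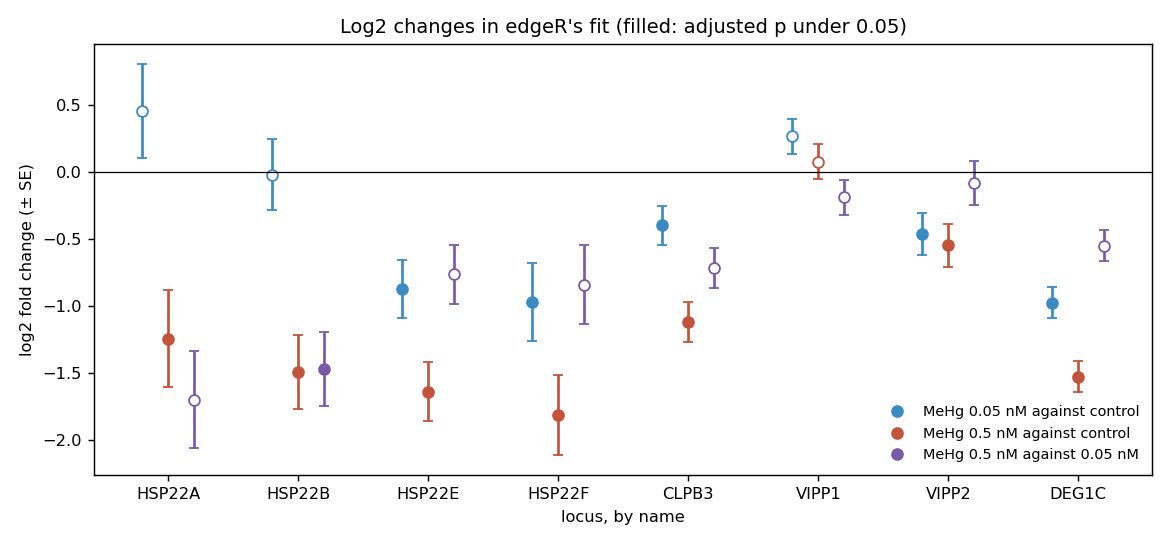
Log2 fold change ± SE of each locus in edgeR's fit to all 9 libraries (3 per group), for 0.05 nM against control, 0.5 nM against control and 0.5 nM against 0.05 nM MeHg; filled points have an adjusted p under 0.05. At 0.5 nM against control the 4 HSP22 loci lie between -1.81 and -1.25, and VIPP1 lies at 0.07.

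The estimated steps across the doses varied between the 8 loci, and differences between loci were not tested. The HSP22A and HSP22B values at 0.05 nM were 1.37 and 0.985 times the control level, without passing the test, and those at 0.5 nM 0.42 and 0.35 times. HSP22E, HSP22F and DEG1C stood at 0.55, 0.51 and 0.51 times the control at 0.05 nM and at 0.32, 0.28 and 0.35 times at 0.5 nM. CLPB3 stood at 0.76 and 0.46 times, and VIPP2 at 0.72 and 0.68 times. Both comparisons share the 3 controls. HSP22A and HSP22B had the lowest log2 differences between the doses, -1.70 and -1.47, and 0.0135% and 0.0271% of all genes tested had a lower one. HSP22A did not pass the test over all genes (edgeR adjusted p = 0.0707), and with the replicate number in the fit the difference was -1.77 ± 0.14 (edgeR adjusted p = 3.13e-05; alternatives 3.13e-05 to 0.304). Within the replicate numbers, 7 of the 8 loci were lower at 0.5 nM than at 0.05 nM in 3 of 3 pairs, against 23.6% of all genes tested, and VIPP1 was lower in 2 of 3.

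Part of the spread within a group followed the replicate number. HSP22E and HSP22F were lowest in replicate 1 of the controls and of the 0.05 nM group, and HSP22A and HSP22B were lowest in replicate 3 of all 3 groups. At 0.5 nM, replicate 3 was the lowest library for 5 of the 8 loci, against 40.1% of all genes tested. Its 17.2 CPM for HSP22A rested on 258 reads and its 9.60 CPM for HSP22B on 144 reads. Without that library the log2 change of HSP22A at 0.5 nM against control was -0.95 and that of HSP22B -1.25.

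Ratios of read counts within a library do not depend on how libraries are scaled, and were compared for the 3 related pairs with exact two-sided permutation tests, whose smallest possible p with 3 libraries against 3 is 0.1. VIPP2 had 0.0679, 0.0691 and 0.0588 reads per VIPP1 read in control replicates 1, 2 and 3, 0.0354, 0.0392 and 0.0429 at 0.05 nM, and 0.0380, 0.0502 and 0.0395 at 0.5 nM. The libraries of both doses lay below the controls and overlapped each other. The mean log2 ratio differed from that of the controls by -0.74 at 0.05 nM and by -0.62 at 0.5 nM (exact permutation p = 0.1 each, 0.3 after Benjamini-Hochberg adjustment over 9 tests). HSP22A had 2.85, 2.21 and 2.30 reads per HSP22B read at 0.05 nM, against 2.17, 1.59 and 1.48 in the controls, without overlap, a difference of 0.50 on the log2 scale (exact permutation p = 0.1, adjusted 0.3). At 0.5 nM the ratios were 2.31, 2.07 and 1.79, which overlapped both other groups. Within each replicate number the HSP22A to HSP22B ratio at 0.5 nM was above that of the control and below that at 0.05 nM, in 3 of 3 pairs each. The HSP22E to HSP22F ratios ran from 0.775 to 1.19 over the 9 libraries, overlapped between all groups, and differed by 0.09 to 0.19 in mean log2 ratio (exact permutation p = 0.4 to 0.7). With 1 library left out, the difference ran from 0.0062 (without control replicate 2) to 0.13 at 0.05 nM against control, and from 0.058 (without 0.5 nM replicate 3) to 0.29 at 0.5 nM. Within replicate numbers the HSP22E to HSP22F ratio was above that of the control in 3 of 3 pairs at both doses. Its log2 differences were 0.0113 to 0.171 at 0.05 nM and 0.0384 to 0.372 at 0.5 nM. The VIPP2 to VIPP1 ratio was below that of the control in 3 of 3 pairs at both doses. Its log2 differences were -0.94 to -0.45 at 0.05 nM and -0.84 to -0.46 at 0.5 nM. An exact sign-flip test over 3 pairs cannot go below p = 0.25, the value each of these paired comparisons had. Reads that fit more than 1 place were not assigned, so near-identical stretches of a pair do not enter these ratios.

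**Figure D3:**
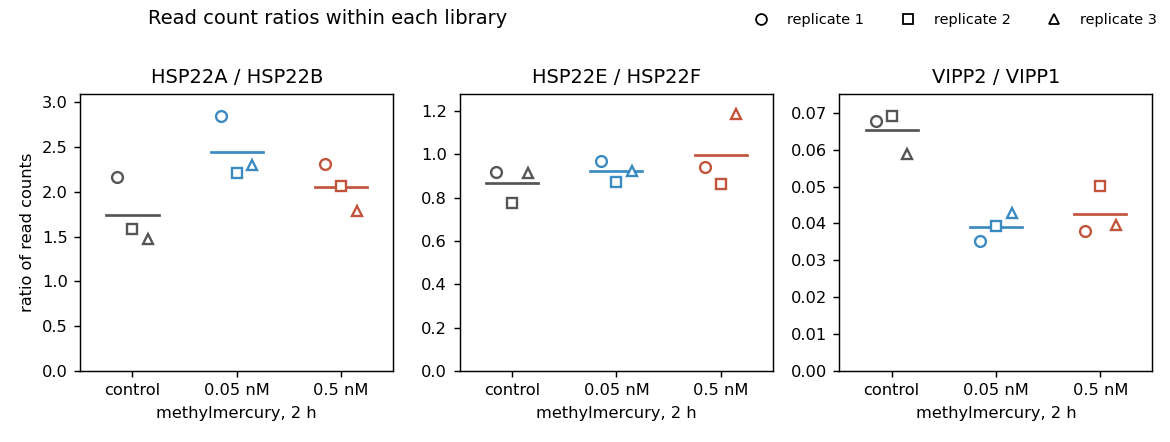
Ratio of read counts between the 2 loci of each pair in every library (vertical axes from 0), by MeHg dose; symbols are replicate numbers and lines the group means (n = 3). The VIPP2 to VIPP1 ratio lies at 0.0354 to 0.0502 in the treated libraries and at 0.0588 to 0.0691 in the controls.

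The sizes of the changes against the controls, and some of the calls, depended on the composition correction. Scaling by library totals alone moved the median gene up by 0.26 on the log2 scale at 0.05 nM and by 0.29 at 0.5 nM, and by 0.04 between the doses. With that scaling 5905 genes were called higher and 2080 lower at 0.05 nM, against 4015 and 3699 with TMM, and 6707 higher and 2557 lower at 0.5 nM, against 4671 and 4234 with TMM. Of the 8 loci, HSP22B at 0.05 nM, called with neither scaling, changed sign, to 0.23, and VIPP1 was called higher at both doses. HSP22E, HSP22F, HSP22B, CLPB3 and DEG1C were still called lower at 0.5 nM, as were HSP22E and DEG1C at 0.05 nM. DESeq2's size factors moved the median gene by -0.05 at each dose and left each of the 16 calls against control on the same side of the threshold. Between the doses the calls did differ. DESeq2's test called 6 loci lower there, against 1 in edgeR's, and 600 genes over all, against 121.

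**Figure D4:**
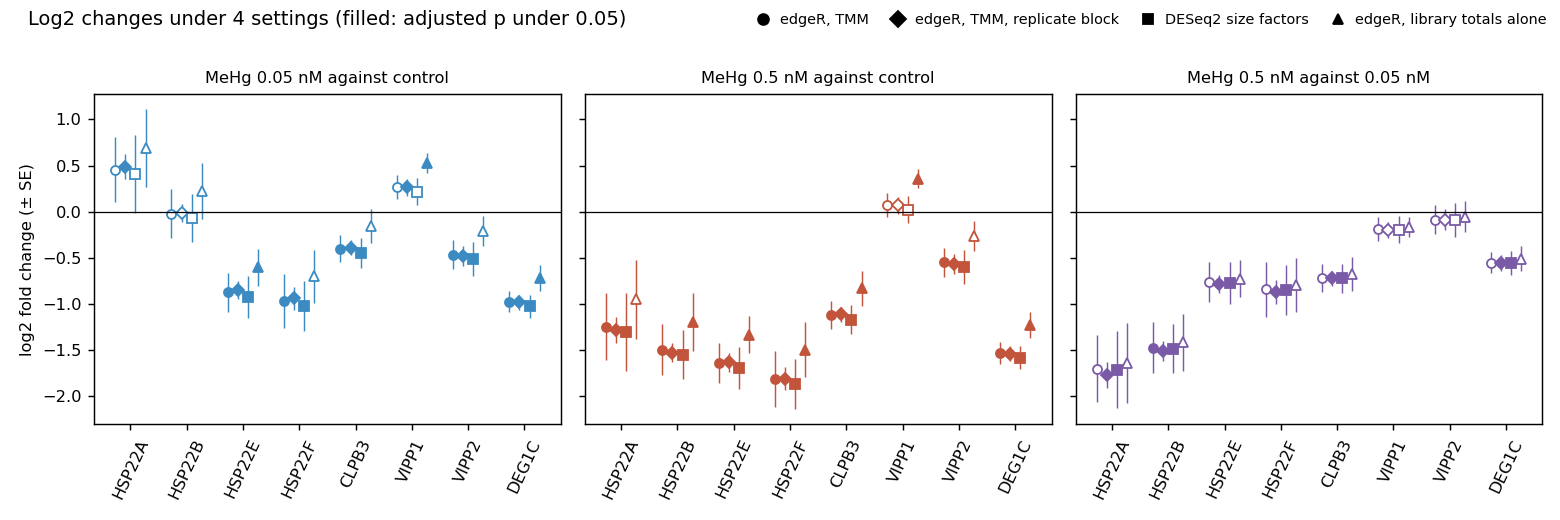
Log2 fold change ± SE of each locus under 4 settings, in 1 panel per comparison; filled symbols have an adjusted p under 0.05. With library totals alone the values against control lie higher than with TMM scaling. Between the doses edgeR with TMM calls 1 locus, that fit with the replicate number 6, DESeq2 6 and library totals alone 0.

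In the authors' deposited table, which gives a signed fold ratio of MeHg over control, 5 of the 8 loci had an FDR-corrected p under 0.05 at 0.05 nM and 7 at 0.5 nM. Over all 17737 genes of the authors' deposited table, 41.2% were under that p at 0.05 nM and 48.6% at 0.5 nM, in either direction. The ratios in the authors' deposited table were 1.37 for HSP22A at 0.05 nM and -2.38 at 0.5 nM (a fall is written as minus the inverse), and for HSP22F -1.96 and -3.53. VIPP1 had 1.20 and 1.05 in the authors' deposited table, with FDR-corrected p = 0.217 and 0.824.

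Other chaperone and protease loci were taken from lists of recalled locus numbers, which no table used here could check, so they are given as counts. Of 9 tested loci for HSP70, HSP90 and their co-chaperones, the ATP-driven partners of small heat shock proteins, 7 were called lower at 0.5 nM and 4 at 0.05 nM, with medians of -1.14 and -0.38, and none was called higher. The shares of all genes called lower were 28.7% at 0.5 nM and 25% at 0.05 nM, and those called higher 31.6% and 27.2%. Of 3 tested chaperonin loci, which form folding cages, 1 was called lower at each dose, with medians of -0.28 at 0.5 nM and -0.20 at 0.05 nM. Of 4 tested loci for chloroplast proteases of the FtsH, Clp and Deg families, 1 was called lower and 1 higher at 0.5 nM, and 1 was called higher at 0.05 nM, with medians of 0.11 and 0.16. These lists are too short for 1 call to be told from those shares. Of the recalled numbers, 9 of 10 for HSP70, HSP90 and co-chaperones, 3 of 6 for chaperonins and 4 of 5 for proteases were among the gene identifiers. The lists too were chosen with earlier results of these data known, so an excess over the shares was not tested. Of the 9 tested loci next to the 8 in the RefSeq gene order, 3 were called lower and 2 higher at each dose, near the same shares.

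Likeness of patterns was measured as the root mean square difference between log2 CPM values, each centred on its own mean over the 9 libraries. HSP22E and HSP22F were each other's nearest among the 8 at 0.154, as were HSP22A and HSP22B at 0.279 and VIPP1 and VIPP2 at 0.349. Outside the 8, none of 14031 genes with a mean of at least 1 CPM lay nearer to HSP22F than HSP22E did, and 3 lay nearer to HSP22E than HSP22F did. For the cytosolic pair, 2 lay nearer to HSP22A and 5 nearer to HSP22B. For CLPB3, whose nearest among the 8 was DEG1C, 1049 genes lay nearer, and for DEG1C, whose nearest was HSP22E, 853 did. Of those genes, 47.0% lay nearer to VIPP1 than VIPP2 did, and 35.3% nearer to VIPP2 than VIPP1 did. The genes nearest to the mean pattern of the 8 were Cre06.g286550 at 0.0931 and g11681 at 0.0982, against a median of 0.583 over all candidates. Cre06.g286550 had 32.5 ± 2.12 CPM in the controls, 23.1 ± 1.94 CPM at 0.05 nM and 14.9 ± 2.50 CPM at 0.5 nM (SD, n = 3 each). The gene nearest to HSP22A was g11575 at 0.136, with 251.5 ± 80.8 CPM in the controls, 358 ± 61.8 CPM at 0.05 nM and 127 ± 58.9 CPM at 0.5 nM (SD, n = 3 each). Cre03.g173300 lay nearest to CLPB3 at 0.0761, and Cre14.g628900 nearest to VIPP2 at 0.0808. The files and the RefSeq table give no names for these identifiers.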

How the data were processed

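RNA was sequenced from 9 cultures of Chlamydomonas reinhardtii with a stranded mRNA kit, per the labels' protocols. For each library the authors deposited raw counts per gene, made with TopHat2 and HTSeq per the submitters' processing notes. Versions, strand setting, genome build and annotation were not given in the sources used here. Overlapping genes on opposite strands may share reads. The authors' deposited table repeats the counts (9 of 9 columns equal), and adds CPM rounded to whole numbers (a score, not tested), a signed fold score and p-values from an EDGE test with tagwise dispersions, per the file headers. HTSeq's categories of unassigned reads were left out of library sizes: reads outside genes were 1.03% to 1.24% and ambiguous reads 0.264% to 0.331% of these and the assigned reads together. Groups and replicate numbers follow the sample titles, and the study's design text calls the samples biological replicates.

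The counts were fitted with edgeR 4.0.16 (R 4.3.3) by its robust quasi-likelihood method, after filterByExpr and TMM, on the 9 libraries together with dose group as the model (6 residual degrees of freedom). Tests were two-sided, p-values were adjusted over the 14778 genes by the Benjamini-Hochberg method, and the threshold was 0.05. Each standard error is the log2 change (its size) divided by the root of F. DESeq2 1.42.0 was an alternative. The fit was run on simulated data in which few genes changed, at 0.5 nM alone, without a replicate effect. Those settings do not check the composition correction or the fit with the replicate number. The design text names no pairing of the samples. Replicate numbers were taken to pair them: deviations from group means correlated at 0.104 to 0.63 in all 9 same-numbered pairs. The correlation was over 0.1 in each, and -0.491 to 0.371 otherwise. For 7 of the 9 libraries the best match shared the number. Control replicate 3 correlated at 0.371 and 0.337 with replicate 2 at 0.05 nM and 0.5 nM, and at 0.21 and 0.104 with replicate 3. The pairing was thus inferred from these data. The fit with the replicate number as a block is given where it changes a call. Log2 CPM for patterns used a prior count of 2. Named genes are the 8 loci, the 2 nearest to their mean pattern and the nearest to HSP22A, CLPB3 and VIPP2. Of 17737 identifiers, 11713 matched the RefSeq table. The loci and lists were chosen with earlier results of these data known. A planned motif search needed promoter sequence, which was not used here. Standard errors and intervals of log2 changes reflect the spread between libraries, which edgeR moderates with information from all genes tested. Intervals used edgeR's total degrees of freedom, not the 6 residual ones alone. Depth was 15138888 to 20433375 counts per library.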

Additional observations from a re-analysis of the deposited data

Results flagged for a closer look

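HSP22B differed between the doses in a direct test (edgeR adjusted p = 0.0484), a call that held in 3 of 14 alternatives. Its level was lower at 0.5 nM than at 0.05 nM, with a log2 difference of -1.47. The means were 15.9 ± 6.51 CPM at 0.5 nM and 44.3 ± 8.12 CPM at 0.05 nM (SD, n = 3 each). HSP22B was lower in 3 of 3 replicate numbers, as were 7 of the 8 loci with it included and 23.6% of all genes tested. CLPB3 and DEG1C were not called, with values just above the threshold (edgeR adjusted p = 0.0501 and 0.0506). HSP22A had a lower log2 difference, -1.70 (edgeR adjusted p = 0.0707).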

How the results depend on the processing

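Of 336 single log2 values of the 8 loci under 14 alternatives and 3 comparisons, 281 kept their direction and side of the threshold, 22 newly passed it, 27 no longer passed and 6 changed sign. The sign changes were in HSP22B at 0.05 nM with library totals alone (0.23) and, with 1 library left out, in HSP22B at 0.05 nM (-0.178 to 0.13), VIPP1 at 0.5 nM (-0.0747 to 0.16) and VIPP2 between the doses (-0.21 to 0.0674). The libraries concerned were control replicate 2 and 0.05 nM replicate 3 for HSP22B, control replicate 1 and 0.5 nM replicate 3 for VIPP1, and 0.5 nM replicate 1 for VIPP2. None of these values was called in either setting, and the cause was not tested.

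With library totals alone, 2 of the 8 loci were called lower and 1 higher at 0.05 nM, 1 was called higher at 0.5 nM and 0 lower between the doses, and over all genes 2080, 2557 and 0 were called lower. With the replicate block, 2 loci were called higher at 0.05 nM and 6 lower between the doses, with 1041 genes lower over all, and beside the values in the results it changed no other call of the 8. DESeq2 called 6 loci and 600 genes lower between the doses. Without a low-count filter 2 loci were lower between the doses, and with only the groups compared 53 genes were. Leaving out 1 library gave 2 to 5 loci called lower at 0.05 nM, 6 to 7 at 0.5 nM and 0 to 3 between the doses, and 0 to 363 genes over all between the doses, against 121 with all libraries. Between the doses 0 genes were called lower without control replicate 2 or 3, 0.5 nM replicate 1 or 3, or any 1 library at 0.05 nM.

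The ratio of HSP22E to HSP22F between the doses ran from -0.0283 to 0.20 in log2 difference with 1 library left out, and that of VIPP2 to VIPP1 from -0.0108 to 0.19. Comparing the ratios within replicate numbers, an alternative chosen after seeing the data, left the 9 mean differences as they were, with exact sign-flip p-values of 0.25 to 1 (adjusted 0.321 to 1).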
